A study of Mus musculus with 9 samples.

Results

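Axon guidance genes encode the ligands and receptors that steer growing nerve fibres, migrating cells and vessel sprouts, and 68 of them were followed here across 3 cell populations of neonatal mouse back skin. They were chosen by gene symbol alone, as every measured ephrin and Eph receptor, semaphorin of classes 3 to 7, plexin, Slit, Robo, netrin and Unc5 gene whose symbol matches the family name and number, plus Nrp1, Nrp2 and Dcc. The 68 genes, 35 ligands and 33 receptors, are part of 18193 genes with a probe set of their own on the array, and each was represented by the probe set with the highest mean over all 9 arrays. Back skin was taken from 3 mice, numbered 2, 4 and 5, at postnatal day 2, and about 50000 cells of each population were collected by flow cytometry. R1 held GFP-CD133- cells, the dermal cells negative for both. R2 held GFP-CD133+ cells, which the labels give as papillae of zigzag hairs, and R3 held GFP+CD133+ cells, given as papillae of guard, awl and auchene hairs. CD133 is the protein made from Prom1. In published mice of this design GFP reports the Sox2 gene. The labels used here name neither strain nor reporter allele, and all 3 populations came from the same animals, so any allele was shared by every group.

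Papilla cells are the mesenchymal cells in the bulb of each hair follicle that send signals to the epithelium growing the hair. Ephrins are held in the membrane and bind Eph receptor tyrosine kinases on the touching cell, while class 3 semaphorins, Slits and most netrins are secreted. Class 3 semaphorins are bound by neuropilins, which lack a signalling domain of their own and pair with plexins. Slits bind Robo receptors, and netrins bind Dcc, commonly linked to attraction, and Unc5 receptors, commonly linked to repulsion. Several of these genes are also known outside nerves, in vessels (Robo4, Unc5b, Plxnd1, the neuropilins) and in glia (Plxnb3).

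All values are log2 expression values, so a difference of 1 is a doubling, and a change followed by ± carries its standard error. Prom1 averaged 7.43 in R1, 11.85 in R2 and 10.32 in R3, and Sox2 averaged 4.19, 7.08 and 10.66. A list of 16 papilla markers includes Prom1, whose protein was sorted on, and Sox2, so its levels were partly set by the sort. Its mean lay between 7.72 and 7.99 on the R1 arrays, 9.22 and 9.48 in R2 and 10.1 and 10.3 in R3. Markers of other cells also differed. Over 12 endothelial markers the mean was 6.77 to 7.18 in R1, 8.35 to 8.64 in R2 and 5.78 to 6.17 in R3. In R3 the means of Tie1, Emcn, Esam and Vwf did not exceed 5.46, the highest of the array guides for unexpressed genes. Esam and Vwf did exceed the guide of the R3 array of mouse 4. Over 8 markers of Schwann cells and glia the mean was 6.56 to 6.85 in R1, 5.52 to 5.86 in R2 and 8.45 to 8.72 in R3. Keratinocyte, leukocyte and melanocyte markers were highest in R1 (10.4 to 11.0, 9.36 to 9.82 and 8.01 to 8.46) and lower in R2 (7.45 to 7.56, 7.39 to 7.87 and 6.52 to 7.25) and in R3 (7.23 to 8.09, 7.50 to 7.70 and 5.94 to 6.93). Lists for dermal fibroblasts (12.50 to 12.54 in R1, at most 11.76 in R2 and 11.28 in R3), pericytes and smooth muscle (9.20 to 9.34, at most 8.52 and 8.05) and skeletal muscle (5.76 to 5.88, at most 5.32 and 4.87) were likewise highest in R1. The guide for unexpressed genes was set on each array by 44 probe sets of olfactory receptors, as the 95th percentile of their values (5.14 to 5.46). As a sign of RNA quality, the 3' signal of beta-actin exceeded its 5' signal by 0.04 to 0.07 in R1 and by 0.11 to 0.22 in R2 and R3, with ranges that did not overlap, whereas the Gapdh ranges overlapped. In such bulk samples fewer cells of a type and less RNA per cell cannot be told apart.

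**Figure D1:**
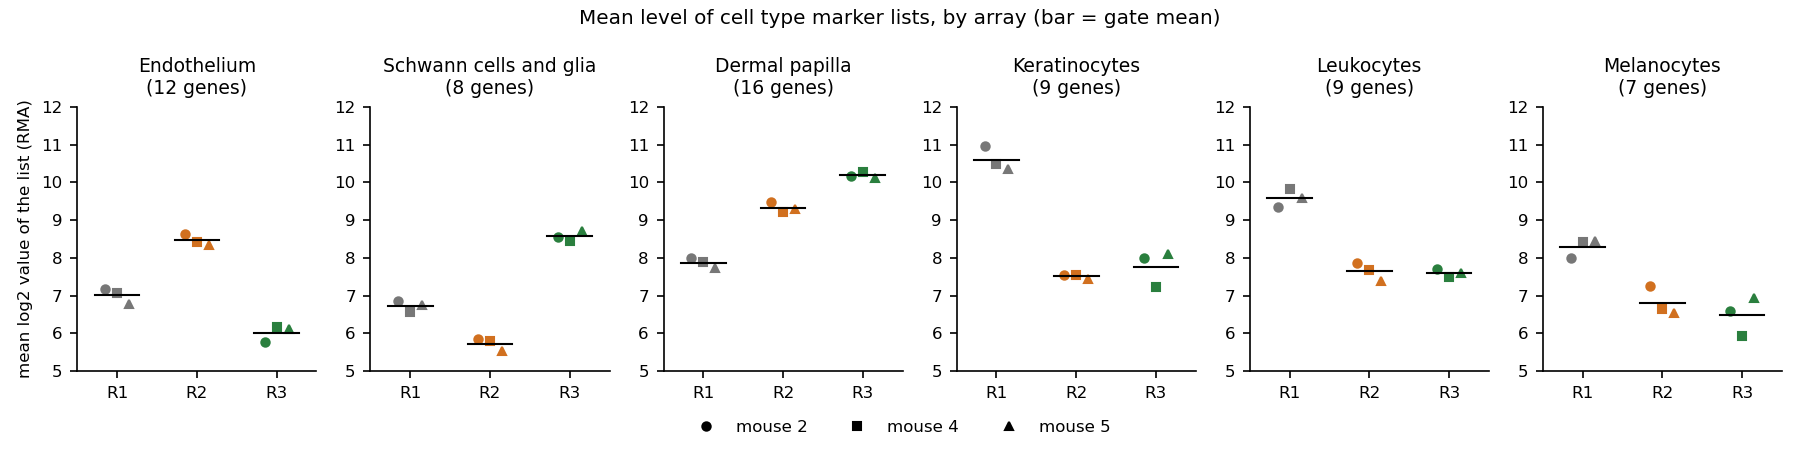
Mean log2 value of 6 cell type marker lists on each array (points) with the gate mean (bars). The endothelial list is highest in R2 and lowest in R3, the Schwann cell and glia list is highest in R3, and the keratinocyte, leukocyte and melanocyte lists are highest in R1.

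Of the 68 guidance genes, 62 had a mean above 5.46, the highest guide of any array, in at least 1 gate (91.2%, against 72.4% of all genes). The 6 that did not were Efna4, Epha10, Epha6, Epha8, Unc5a and Unc5d. Set beside the guide of each array, Unc5a did exceed it on every R1 and every R3 array. Called below means an adjusted p under 0.05 in limma's test over all 18193 genes. In that sense 36 guidance genes were called in at least 1 of the 3 comparisons and 32 in none. Of all genes, 5.03% were called in R3 against R2, 13.1% in R2 against R1 and 18.7% in R3 against R1. The share of all genes called in at least 1 comparison was not counted. The mean was highest in R2 for 35 of the 68 (51.5%, against 29.1% of all genes). It was highest in R3 for 17 (25%, against 32.0%) and in R1 for 16 (23.5%, against 38.9%). The 3 comparisons share arrays, so their calls are not independent of each other.

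The comparison of the papilla gates gave calls among receptors and semaphorins, and none among ephrins, Slits or netrins in the main fit. R3 had more of the netrin receptors Unc5c and Dcc, the Eph receptor Epha5, the plexin Plxnb3 and the secreted semaphorins Sema3b and Sema3e. R2 had more of the endothelial receptor Robo4, both neuropilins, and the semaphorins Sema7a, Sema3a, Sema3d, Sema3g and Sema5a. In all, 14 of 68 were called (20.6%, against 5.03% of all genes), 6 higher in R3 (8.82%, background 1.97%) and 8 lower (11.8%, background 3.06%). The median absolute change was 0.34 over the 68 genes and 0.19 over all genes. The 68 genes also had the higher median level (7.37 against 6.83). All 14 changed in the same direction in each of the 3 mice, with no overlap between the R2 and R3 arrays. The same held for guidance genes that were not called, such as Efna1, Efnb1 and Plxnb2. The share of all genes without overlap was not counted. The count of genes higher in R3 was 4 to 7 with any 1 array left out. The count lower was 3 without the R2 array of mouse 2 or the R3 array of mouse 2 or 4, and 4 without the R2 array of mouse 4 or 5. Calls kept under every alternative that tested them were those of Unc5c, Dcc, Sema3b, Sema3e, Robo4, Sema7a and Sema3a.

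**Figure D2:**
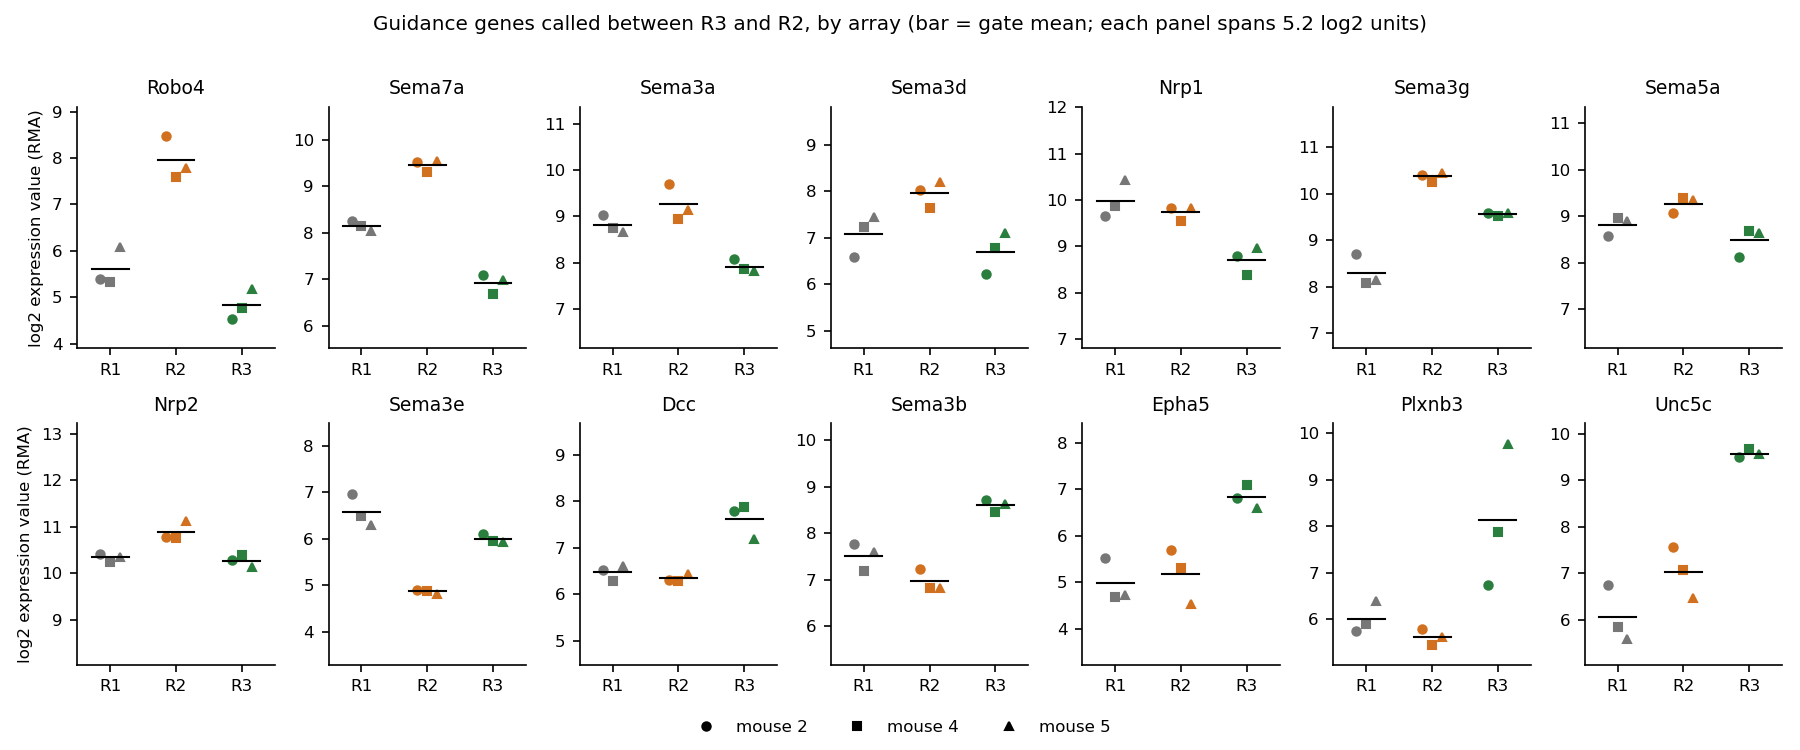
Log2 value on each of the 9 arrays (points) and gate mean (bars) for the 14 guidance genes called between R3 and R2. R2 and R3 points do not overlap in any panel, and the R3 points of Plxnb3 spread from 6.74 to 9.78.

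The promoters of 5 genes are shown because their calls between the papilla gates held under every alternative that tested them: Robo4, Sema7a and Sema3a, lower in R3, and Sema3e and Unc5c, higher in R3. Sema3b and Dcc, whose calls also held, are named only. Each line gives the 250 bases before the transcript start on the plus strand, from RefSeq for build GRCm38.p6, at chr9:37401722-37401971, chr9:57939862-57940111, chr5:13396534-13396783, chr5:14025026-14025275 and chr3:141465314-141465563. Capitals mark 3 motifs, searched on either strand, that do not overlap here. The core bound by ETS factors is GGAA. The GC box, bound by Sp1 and related factors, is GGGCGG. The motif of SOX factors is ACAATG.
Robo4: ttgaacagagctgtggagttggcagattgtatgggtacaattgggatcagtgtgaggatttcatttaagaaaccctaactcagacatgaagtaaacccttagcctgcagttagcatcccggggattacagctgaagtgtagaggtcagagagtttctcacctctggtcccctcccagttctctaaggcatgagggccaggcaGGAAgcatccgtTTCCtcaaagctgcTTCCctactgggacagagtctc
Sema7a: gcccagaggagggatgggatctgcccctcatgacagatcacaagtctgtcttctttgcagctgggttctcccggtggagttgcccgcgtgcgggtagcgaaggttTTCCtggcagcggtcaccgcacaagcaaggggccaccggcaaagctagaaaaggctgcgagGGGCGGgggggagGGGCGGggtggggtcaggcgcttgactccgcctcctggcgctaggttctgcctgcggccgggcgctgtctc
Sema3a: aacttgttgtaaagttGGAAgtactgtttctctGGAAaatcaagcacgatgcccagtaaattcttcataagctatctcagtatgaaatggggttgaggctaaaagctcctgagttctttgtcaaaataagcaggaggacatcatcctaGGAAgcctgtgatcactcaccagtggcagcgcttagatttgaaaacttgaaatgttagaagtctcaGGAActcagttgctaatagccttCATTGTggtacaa
Sema3e: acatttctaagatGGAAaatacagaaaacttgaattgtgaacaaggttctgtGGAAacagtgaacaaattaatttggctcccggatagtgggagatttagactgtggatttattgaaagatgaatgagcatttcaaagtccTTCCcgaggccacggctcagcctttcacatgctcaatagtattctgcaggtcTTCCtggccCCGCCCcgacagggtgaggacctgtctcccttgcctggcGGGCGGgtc
Unc5c: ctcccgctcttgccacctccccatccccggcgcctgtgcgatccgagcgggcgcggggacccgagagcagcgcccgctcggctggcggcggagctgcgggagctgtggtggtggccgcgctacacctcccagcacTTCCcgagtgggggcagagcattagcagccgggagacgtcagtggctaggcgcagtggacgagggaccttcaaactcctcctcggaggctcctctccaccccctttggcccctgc
The Robo4 window held 3 ETS cores within its last 48 bases, no GC box and 2 CpG dinucleotides, at 49.6% G+C. That of Sema7a held 2 GC boxes, 1 ETS core and 17 CpG, and that of Unc5c 1 ETS core, no GC box and 23 CpG. The Sema3e window held 4 ETS cores and 2 GC boxes with 7 CpG. The Sema3a window held 4 ETS cores, 2 CpG and no GC box. It was the only one of the 5 with the SOX motif, once, 13 bases before the start. The ETS core lay in 93.1% of the windows of 14452 tested genes and in 89.7% of those of 58 matched guidance genes, the GC box in 49.9% and 74.1%, and the SOX motif in 7.93% and 10.3%. The median G+C content was 57.6% over all windows and 64.6% over those of the guidance genes. A match in such a window describes its letters and is not evidence of a factor bound there.

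Among the ligands, Sema7a had the smallest adjusted p of the 68 genes. Sema7a is a semaphorin held on the cell surface by a lipid anchor that binds the plexin Plxnc1 and integrins. On the arrays of mice 2, 4 and 5 it read 8.25, 8.13 and 8.03 in R1, 9.52, 9.31 and 9.53 in R2 and 7.10, 6.68 and 6.98 in R3. Every R2 array lay above every R1 array, and every R3 array lay below both. Sema7a fell 5.81-fold from R2 to R3 (-2.54 ± 0.14, adjusted p = 1.31e-05), 2.49-fold higher in R2 than in R1 (1.32 ± 0.14, adjusted p = 0.000328) and 2.33-fold lower in R3 than in R1 (-1.22 ± 0.14, adjusted p = 0.000382). A second, dimmer probe set for Sema7a was also lower in R3 than in R2, by a smaller log2 change of -1.14.

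Class 3 semaphorins, the secreted ligands of neuropilins and plexins, went both ways. Of 7, Sema3b and Sema3e rose in R3 against R2 (1.97% of all genes) and Sema3a, Sema3d and Sema3g fell (3.06%). Sema3b, which signals chiefly through Nrp2, read 7.76, 7.19 and 7.60 in R1, 7.23, 6.82 and 6.82 in R2 and 8.70, 8.46 and 8.64 in R3. R3 was above both other gates on every array, 3.12-fold above R2 (1.64 ± 0.18, adjusted p = 0.000759) and 2.12-fold above R1 (1.08 ± 0.18, adjusted p = 0.00278). Sema3e, a ligand of Plxnd1 that needs no neuropilin, read 6.95, 6.48 and 6.30 in R1, 4.91, 4.88 and 4.81 in R2 and 6.09, 5.95 and 5.94 in R3. Its R2 arrays were the lowest and did not overlap the others. No R2 array exceeded its guide for unexpressed genes, so the folds are lower bounds against that guide. Sema3e was at least 1.57-fold higher in R3 than R2 (measured change 1.13 ± 0.17, adjusted p = 0.00409) and at least 2.36-fold lower in R2 than in R1 (measured change -1.71 ± 0.17, adjusted p = 0.00018). R1 was also above R3 (-0.59 ± 0.17, adjusted p = 0.0365), a call lost without the R1 array of mouse 2 or 4, any single R2 array, any single R3 array, with the mean of its probe sets or with only the 6 arrays compared, at an adjusted p of 0.0518 to 0.102 without those arrays and 0.0185 to 0.102 over all alternatives.

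Sema3a, the repellent that binds Nrp1, read 9.03, 8.75 and 8.66 in R1, 9.70, 8.95 and 9.14 in R2 and 8.07, 7.86 and 7.82 in R3, and its R3 arrays were below all others. It fell by 2.54-fold in R3 against R2 (-1.34 ± 0.20, adjusted p = 0.00398) and by 1.86-fold against R1 (-0.90 ± 0.20, adjusted p = 0.0117). Sema3d read 6.59, 7.23 and 7.45 in R1, 8.03, 7.64 and 8.21 in R2 and 6.23, 6.79 and 7.09 in R3. R2 was highest on every array, 2.39-fold above R3 (-1.26 ± 0.28, adjusted p = 0.0325), a call lost without the R2 array of mouse 2 or 5, the R3 array of mouse 2 or 4 or after repeated quantile normalization, at an adjusted p of 0.0841 to 0.104 without those arrays and 0.000594 to 0.104 over all alternatives. Sema3g, known as an endothelial ligand of Nrp2, read 8.69, 8.08 and 8.14 in R1, 10.41, 10.26 and 10.46 in R2 and 9.59, 9.52 and 9.58 in R3. Its 3 gates did not overlap, with R2 highest and R1 lowest. It was 4.2-fold higher in R2 than in R1 (2.07 ± 0.17, adjusted p = 6.51e-05), 2.4-fold higher in R3 than in R1 (1.26 ± 0.17, adjusted p = 0.000774) and 1.75-fold below R2 in R3 (-0.81 ± 0.17, adjusted p = 0.0235). The last of these was lost without any single R2 array or any single R3 array, at an adjusted p of 0.0534 to 0.0816 without those arrays and 0.00517 to 0.0816 over all alternatives. Without the R2 array of mouse 2 or 5 or the R3 array of mouse 2 or 4, 1 of the 7 class 3 semaphorins was called lower in R3 against R2 in place of 3.

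The remaining class 3 genes were highest in R1. Sema3c, which attracts as well as repels and binds both neuropilins, averaged 9.24 ± 0.13 in R1, 8.37 ± 0.20 in R2 and 8.90 ± 0.27 in R3 (SD, n = 3), and was lower in R2 than in R1 (-0.88 ± 0.17, adjusted p = 0.00855). Its change between the papilla gates was 0.53, 95% interval 0.15 to 0.91, and was not called. Sema3f, a ligand of Nrp2, averaged 6.93 ± 0.31 in R1, 6.22 ± 0.22 in R2 and 6.03 ± 0.26 in R3 and was lower in R3 than in R1 (-0.90 ± 0.20, adjusted p = 0.0121). Its fall in R2 against R1 (-0.71 ± 0.20, adjusted p = 0.0449) was lost without the R1 array of mouse 2 or 4, any single R2 array, the R3 array of mouse 4 or 5, with the mean of its probe sets, with the mouse as a fixed block (adjusted p = 0.0518), with only the 6 arrays compared or with a trended, robust variance, at an adjusted p of 0.0521 to 0.15 without those arrays and 0.0236 to 0.15 over all alternatives.

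Of the 13 membrane semaphorins of classes 4 to 7, Sema7a and Sema5a fell in R3 against R2 (3.06% of all genes) and none rose (1.97%). Sema5a, which binds Plxnb3, read 8.58, 8.96 and 8.90 in R1, 9.07, 9.38 and 9.35 in R2 and 8.12, 8.68 and 8.63 in R3. The R2 arrays lay above the R3 arrays, and the difference was 1.73-fold (-0.79 ± 0.18, adjusted p = 0.0407). That call was lost without the R1 array of mouse 4 or 5, any single R2 array, any single R3 array, with the mean of its probe sets, with only the 6 arrays compared or after repeated quantile normalization, at an adjusted p of 0.0568 to 0.14 without those arrays and 0.0101 to 0.14 over all alternatives. Against R1, Sema4a (0.75 ± 0.21, adjusted p = 0.0444), Sema6a (0.58 ± 0.16, adjusted p = 0.0444) and Sema7a rose in R2 and Sema4f fell (-0.83 ± 0.19, adjusted p = 0.0207). The Sema4a call was lost without any single R1 array, any single R2 array, the R3 array of mouse 4, with arrays centred on their medians, with the mean of its probe sets or after repeated quantile normalization, at an adjusted p of 0.062 to 0.138 without those arrays and 0.018 to 0.258 over all alternatives. The Sema6a call was lost without the R1 array of mouse 2 or 5, any single R2 array, the R3 array of mouse 2 or 4, with only the 6 arrays compared or after repeated quantile normalization, at an adjusted p of 0.0594 to 0.127 without those arrays and 0.000669 to 0.127 over all alternatives. For Sema4f, 1 of 3 R2 arrays exceeded the guide, and its call was lost without the R1 array of mouse 2 or 5 or the R2 array of mouse 2 or 5, at an adjusted p of 0.0503 to 0.0724 without those arrays and 0.014 to 0.0724 over all alternatives. Sema6d was higher in R3 than in R1 (0.70 ± 0.18, adjusted p = 0.0232), lost without the R1 array of mouse 2, the R3 array of mouse 5 or with the mean of its probe sets, at an adjusted p of 0.0608 to 0.0801 without those arrays and 0.0117 to 0.191 over all alternatives.

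Ephrins, the membrane ligands of Eph receptors, gave no call between the papilla gates in the main fit. limma called 0 of 8 there (5.03% of all genes), with 3 at an unadjusted p under 0.05 (3285 of all 18193 genes). The A-type ephrin Efna5 read 10.45, 10.29 and 10.20 in R1, 8.99, 9.35 and 9.69 in R2 and 9.59, 9.56 and 9.09 in R3, so R1 lay above both papilla gates, which overlapped each other. It was 1.96-fold lower in R2 (-0.97 ± 0.20, adjusted p = 0.012) and 1.86-fold lower in R3 (-0.90 ± 0.20, adjusted p = 0.0125) than in R1. Efnb2, which marks arterial endothelium as well as other cells, read 11.51, 11.73 and 11.72 in R1, 11.30, 11.35 and 11.39 in R2 and 10.86, 10.94 and 10.90 in R3 and was lower in R3 than in R1 (-0.75 ± 0.11, adjusted p = 0.00157). Its R2 arrays lay between those of the other gates. The Efnb2 change of -0.45 from R2 to R3 (95% interval -0.71 to -0.20) was not called in the main fit. It was called with the mouse as a random block (adjusted p = 0.0449). Its adjusted p in limma was 0.0102 to 0.213 over all alternatives, lowest in a fit without a block.

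Slits and netrins, the secreted ligands of Robo and of Dcc and Unc5 receptors, also gave no call between the papilla gates in the main fit. Of 3 Slits 0 were called by limma, with 0 at an unadjusted p under 0.05, and of 4 netrins 0, with 1. Of all 18193 genes 5.03% were called there, with 3285 at an unadjusted p under 0.05. Slit2, which binds Robo1 and Robo2, read 9.12, 8.93 and 9.18 in R1, 10.14, 9.76 and 9.76 in R2 and 10.01, 10.03 and 9.95 in R3. Both papilla gates lay above R1, by 1.75-fold in R2 (0.81 ± 0.14, adjusted p = 0.00477) and 1.89-fold in R3 (0.92 ± 0.14, adjusted p = 0.00168). Ntn1, the founding netrin, read 11.32, 11.07 and 11.32 in R1, 10.77, 10.82 and 10.89 in R2 and 10.44, 10.33 and 10.24 in R3. R1 was highest and R3 lowest on average, and R3 was 1.87-fold below R1 (-0.90 ± 0.12, adjusted p = 0.000889). Between R3 and R2 its change was -0.49 (95% interval -0.77 to -0.22), not called in the main fit. It was called with the mouse as a random block (adjusted p = 0.0451). Its adjusted p in limma was 0.0173 to 0.684 over all alternatives, lowest in a fit without a block.

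Netrin receptors showed the largest rise in R3. Unc5c, an Unc5 receptor with an intracellular death domain, read 6.74, 5.85 and 5.58 in R1, 7.57, 7.07 and 6.46 in R2 and 9.50, 9.67 and 9.57 in R3. The 3 R3 arrays stood above all 6 others. Unc5c rose 5.83-fold in R3 against R2 (2.54 ± 0.33, adjusted p = 0.00175) and was 11.5-fold higher than in R1 (3.52 ± 0.33, adjusted p = 9.21e-05), the largest change among the 68 genes in any comparison. Dcc, the netrin receptor best known from commissural axons, read 6.52, 6.28 and 6.62 in R1, 6.31, 6.28 and 6.44 in R2 and 7.80, 7.88 and 7.18 in R3, again with every R3 array on top. It rose 2.42-fold against R2 (1.28 ± 0.19, adjusted p = 0.00411) and 2.21-fold against R1 (1.14 ± 0.19, adjusted p = 0.00262). The other probe sets for Dcc gave larger log2 changes between R3 and R2, 3.65 and 3.50. Unc5b, the netrin receptor known from endothelial tip cells, read 9.17, 8.60 and 8.64 in R1, 9.94, 10.30 and 10.22 in R2 and 9.45, 9.32 and 9.58 in R3, with R2 on top on every array. It rose in R2 against R1 (1.35 ± 0.18, adjusted p = 0.00108). Its rise in R3 against R1 (0.64 ± 0.18, adjusted p = 0.0332) was lost without the R1 array of mouse 4 or 5, any single R3 array, with the mouse as a fixed block (adjusted p = 0.058) or with only the 6 arrays compared, at an adjusted p of 0.0558 to 0.113 without those arrays and 0.00899 to 0.113 over all alternatives. Its change of -0.70 from R2 to R3 (95% interval -1.10 to -0.30) was not called in the main fit. It was called with the mouse as a random block (adjusted p = 0.0499). Its adjusted p in limma was 0.0256 to 0.182 over all alternatives, lowest in a fit without a block. Ntn1 was thus highest in R1, Unc5b in R2, and Dcc and Unc5c in R3.

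Robo4, the Robo receptor of endothelial cells, had the largest measured fall between the papilla gates among the 68 genes. It read 5.40, 5.33 and 6.08 in R1, 8.47, 7.59 and 7.79 in R2 and 4.53, 4.77 and 5.18 in R3. R2 stood above both other gates on every array. No R3 array exceeded its guide for unexpressed genes, so the fall from R2 to R3 is given as at least 6.72-fold, with each R3 array set to the higher of its guide and its own value (measured change -3.12 ± 0.28, adjusted p = 0.000223). R2 was 5.09-fold above R1 (2.35 ± 0.28, adjusted p = 0.000578), where 2 of 3 arrays exceeded the guide. With the other R1 array set to the guide the fold was 5.02. R3 and R1 differed by -0.78 (95% interval -1.41 to -0.15, adjusted p = 0.0878), which was not called. Robo1, the Slit receptor with a broad distribution, averaged 10.59 ± 0.06 in R1, 11.23 ± 0.23 in R2 and 11.02 ± 0.12 in R3 (SD, n = 3) and rose in R2 against R1 (0.64 ± 0.14, adjusted p = 0.0161), a call lost without the R1 array of mouse 2 or 4, the R2 array of mouse 4 or 5 or with the mean of its probe sets, at an adjusted p of 0.0508 to 0.057 without those arrays and 0.00518 to 0.164 over all alternatives. Robo3, a Robo receptor of commissural axons, was at least 1.07-fold higher in R3 than in R1, where no array exceeded the guide (measured change 0.58 ± 0.16, adjusted p = 0.0349), a call lost without any single R1 array, the R3 array of mouse 2 or 4, with the mean of its probe sets or with the mouse as a fixed block (adjusted p = 0.0545), at an adjusted p of 0.0574 to 0.121 without those arrays and 0.0228 to 0.121 over all alternatives.

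Both neuropilins, the co-receptors of class 3 semaphorins and of vascular endothelial growth factor, were lower in R3 than in R2. Nrp1 read 9.66, 9.88 and 10.43 in R1, 9.83, 9.55 and 9.82 in R2 and 8.79, 8.38 and 8.97 in R3, and each R3 array was below each array of the other gates. It fell 2.03-fold against R2 (-1.02 ± 0.22, adjusted p = 0.0285) and 2.42-fold against R1 (-1.28 ± 0.22, adjusted p = 0.00324). The first call was lost without any single R2 array or the R3 array of mouse 2 or 4, at an adjusted p of 0.0549 to 0.101 without those arrays and 0.00202 to 0.101 over all alternatives. Nrp2 read 10.42, 10.25 and 10.36 in R1, 10.77, 10.75 and 11.12 in R2 and 10.28, 10.40 and 10.13 in R3, with R2 on top. Its 1.53-fold fall in R3 against R2 (-0.61 ± 0.14, adjusted p = 0.0389) was lost without any single R1 array, any single R2 array, any single R3 array, with the mean of its probe sets, with the mouse as a fixed block (adjusted p = 0.073), with only the 6 arrays compared or after repeated quantile normalization, at an adjusted p of 0.0541 to 0.102 without those arrays and 0.0166 to 0.102 over all alternatives. The rise in R2 against R1 (0.54 ± 0.14, adjusted p = 0.0353) was lost without any single R1 array, any single R2 array, the R3 array of mouse 2, with the mean of its probe sets, with the mouse as a fixed block (adjusted p = 0.0603) or with only the 6 arrays compared, at an adjusted p of 0.0508 to 0.108 without those arrays and 0.016 to 0.108 over all alternatives. Other probe sets gave Nrp2 changes of -0.99 and -0.92 between R3 and R2, both called, and 0.26, not called.

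Of the 9 plexins, the receptors of semaphorins, Plxnb3 was called between the papilla gates. It is the receptor of Sema5a and is known from oligodendrocytes and other glia. Plxnb3 read 5.74, 5.91 and 6.39 in R1, 5.79, 5.45 and 5.63 in R2 and 6.74, 7.88 and 9.78 in R3. The R3 arrays were above all others but spread over more than 3 log2 units. It rose 5.71-fold in R3 against R2 (2.51 ± 0.60, adjusted p = 0.0445) and was 4.36-fold higher than in R1 (2.13 ± 0.60, adjusted p = 0.0356). The first call was lost without any single R1 array, any single R2 array, the R3 array of mouse 4 or with only the 6 arrays compared, at an adjusted p of 0.0636 to 0.136 without those arrays and 0.00819 to 0.136 over all alternatives, and the second without any single R1 array, any single R2 array, the R3 array of mouse 4 or with only the 6 arrays compared, at an adjusted p of 0.0517 to 0.102 without those arrays and 0.00528 to 0.102 over all alternatives.

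Plxnc1, the receptor of Sema7a, read 7.52, 8.36 and 8.01 in R1, 4.99, 5.94 and 4.72 in R2 and 6.35, 6.53 and 5.80 in R3. It was highest in R1 on every array, 6.69-fold above R2 (-2.74 ± 0.34, adjusted p = 0.000678) and 3.33-fold above R3 (-1.74 ± 0.34, adjusted p = 0.00598). Only 1 of 3 R2 arrays exceeded the guide for unexpressed genes, and with the others set to it R1 was 5.27-fold above R2. Its ligand Sema7a was thus highest in the gate where Plxnc1 had its lowest mean, R2. Plxnd1, the receptor of Sema3e known from endothelium, read 6.86, 6.36 and 6.77 in R1, 7.78, 7.89 and 7.55 in R2 and 7.17, 7.56 and 7.45 in R3. It was lowest in R1 and rose in R2 (1.08 ± 0.17, adjusted p = 0.00328) and R3 (0.73 ± 0.17, adjusted p = 0.0168), the latter lost without the R1 array of mouse 4 or the R3 array of mouse 4, at an adjusted p of 0.0565 to 0.0642 without those arrays and 0.00838 to 0.0642 over all alternatives. Its ligand Sema3e was highest in R1. Plxna4, a partner of neuropilins that also binds class 6 semaphorins, read 6.03, 5.61 and 5.84 in R1, 3.95, 4.68 and 4.65 in R2 and 4.78, 4.54 and 4.89 in R3. No R2 or R3 array exceeded its guide for unexpressed genes. R1 was at least 1.4-fold above R2 (measured change -1.40 ± 0.21, adjusted p = 0.00238) and at least 1.54-fold above R3 (measured change -1.09 ± 0.21, adjusted p = 0.00632), both taken against the guide.

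More Eph receptors rose than fell in the papilla gates against R1. Of 13, 4 rose and none fell in R2 against R1 (all genes 6.89% and 6.16%), and 6 rose and Ephb3 fell (-0.72 ± 0.14, adjusted p = 0.00761) in R3 against R1 (all genes 7.9% and 10.8%). Ephb1, a receptor of B-type ephrins, read 7.10, 6.01 and 6.58 in R1, 8.87, 9.13 and 8.81 in R2 and 8.13, 8.84 and 8.77 in R3. Both papilla gates lay clear of R1, by 5.18-fold in R2 (2.37 ± 0.28, adjusted p = 0.000529) and 4.06-fold in R3 (2.02 ± 0.28, adjusted p = 0.000963). Ephb6, whose kinase domain is inactive, read 5.80, 5.92 and 4.90 in R1, 7.59, 7.62 and 7.33 in R2 and 6.96, 6.45 and 6.70 in R3. Against R1, where 2 of 3 arrays exceeded the guide, it rose 3.93-fold in R2 (1.98 ± 0.26, adjusted p = 0.001) and 2.24-fold in R3 (1.16 ± 0.26, adjusted p = 0.0122). With the other R1 array set to the guide these folds were 3.53 and 2.01. Epha7, a receptor of A-type ephrins, read 6.41, 6.29 and 6.01 in R1, 7.37, 7.98 and 7.36 in R2 and 8.10, 8.41 and 8.13 in R3. The gates formed a series from R1 to R3 without overlap, with rises of 2.52-fold in R2 (1.33 ± 0.19, adjusted p = 0.00186) and 3.94-fold in R3 (1.98 ± 0.19, adjusted p = 0.000134) against R1. Between R3 and R2 the chosen Epha7 probe set changed by 0.64 (adjusted p = 0.102) and was not called, whereas dimmer Epha7 probe sets were called higher in R3, at 1.57 and 1.22.

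Epha5, another receptor of A-type ephrins, was the Eph receptor called between the papilla gates. It read 5.52, 4.69 and 4.73 in R1, 5.70, 5.31 and 4.54 in R2 and 6.81, 7.10 and 6.60 in R3, with R3 above R1 and R2 on every array. The rise was 3.15-fold against R2 (1.65 ± 0.32, adjusted p = 0.0158) and 3.62-fold against R1 (1.86 ± 0.32, adjusted p = 0.00305). Of the arrays in the lower gates, 2 of 3 in R2 and 1 of 3 in R1 exceeded the guide for unexpressed genes. With the others set to the guide the folds were 2.64 and 2.73. The call against R2 was lost without the R3 array of mouse 2 or 4, at an adjusted p of 0.0529 to 0.0672 without those arrays and 0.00916 to 0.0672 over all alternatives. Epha3 averaged 8.44 ± 0.05 in R1, 9.77 ± 0.36 in R2 and 9.11 ± 0.30 in R3 (SD, n = 3) and rose in R2 against R1 (1.33 ± 0.20, adjusted p = 0.0025), while its rise in R3 against R1 lay near the threshold (0.66 ± 0.20, adjusted p = 0.0497) and was lost without any single R1 array, the R2 array of mouse 2, the R3 array of mouse 4 or 5, with arrays centred on their medians, with the mouse as a fixed block (adjusted p = 0.0731) or after repeated quantile normalization, at an adjusted p of 0.0689 to 0.145 without those arrays and 0.0264 to 0.145 over all alternatives. Epha4 averaged 8.11 ± 0.60 in R1, 8.83 ± 0.19 in R2 and 9.34 ± 0.43 in R3 and rose in R3 against R1 (1.24 ± 0.30, adjusted p = 0.0193), a call lost without the R1 array of mouse 4 or the R3 array of mouse 2 or 4, at an adjusted p of 0.0503 to 0.0684 without those arrays and 0.00629 to 0.0684 over all alternatives. Their ligand Efna5 moved the other way, being highest in R1.

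**Figure D3:**
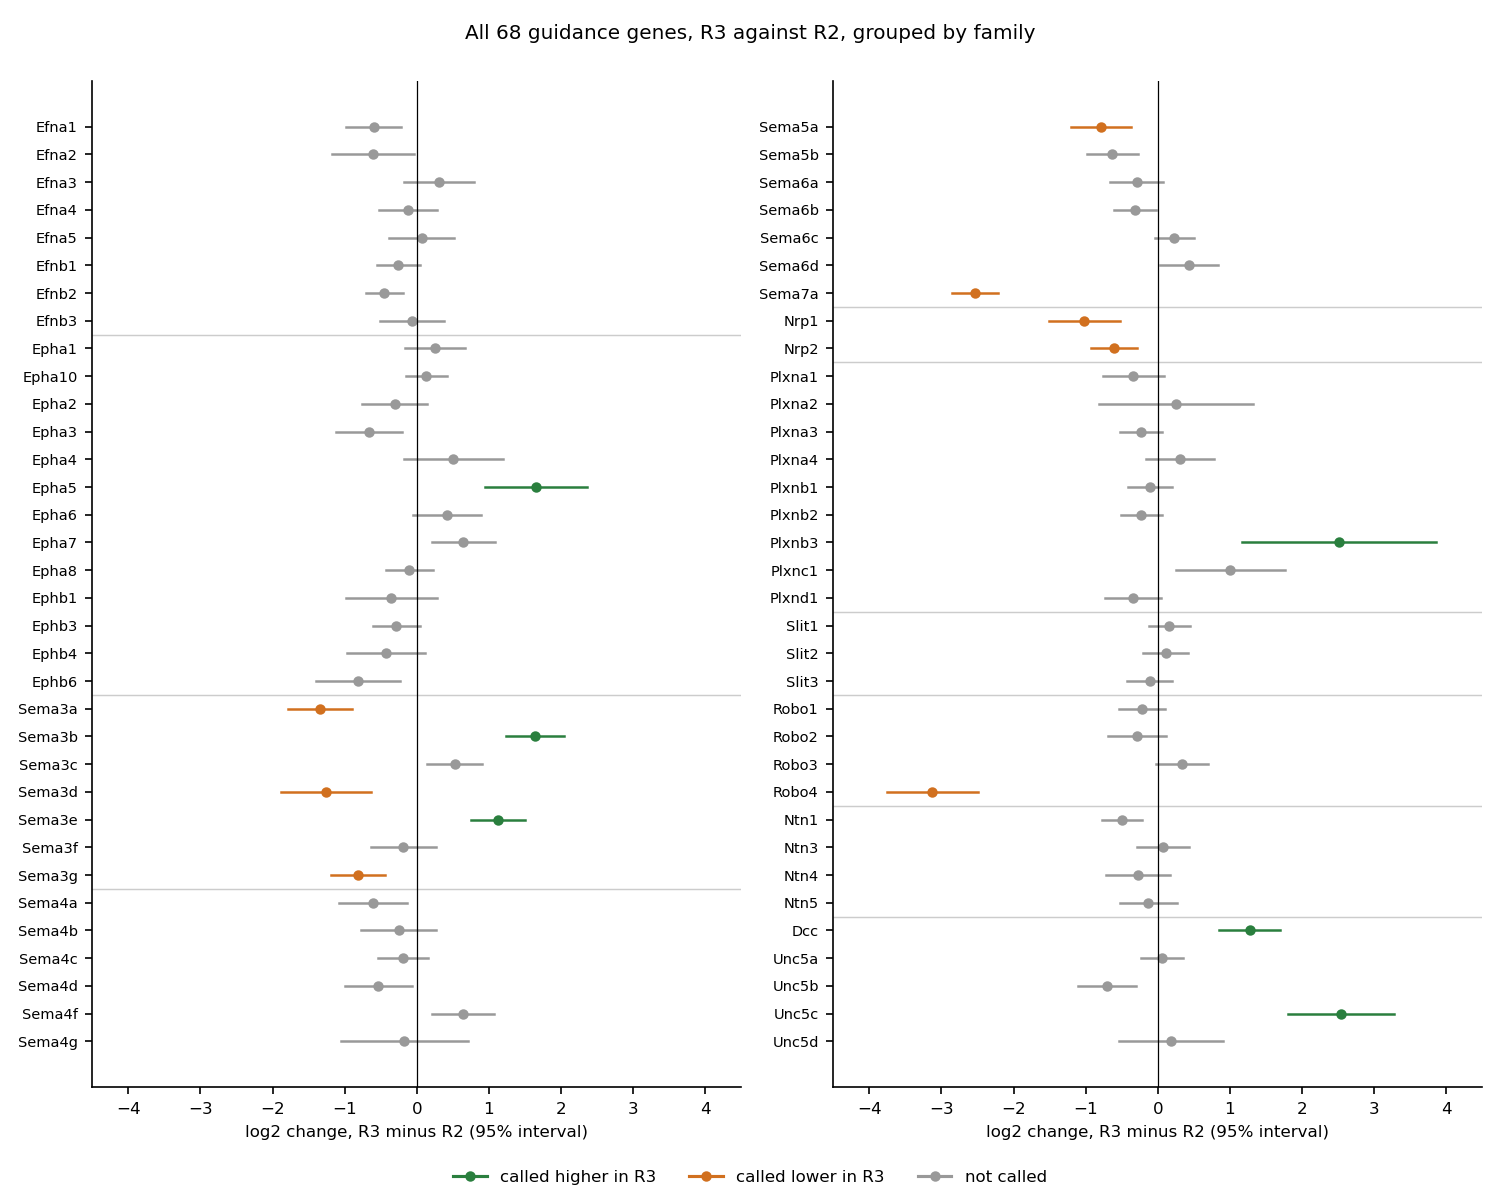
Log2 change in R3 against R2 with its 95% interval for all 68 guidance genes, grouped by family. Unc5c (2.54) and Plxnb3 (2.51) lie farthest to the right and Robo4 (-3.12) and Sema7a (-2.54) farthest to the left, and the interval of Plxnb3 is wide.

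By the chosen probe set and in the main fit, 32 guidance genes were called in no comparison, 18 ligands and 14 receptors. The ligands were 6 ephrins (Efna1, Efna2, Efna3, Efna4, Efnb1 and Efnb3), 7 semaphorins (Sema4b, Sema4c, Sema4d, Sema4g, Sema5b, Sema6b and Sema6c), the Slits Slit1 and Slit3, and the netrins Ntn3, Ntn4 and Ntn5. Among these the change in R3 against R2 ranged from -0.63 for Sema5b (adjusted p = 0.051) to 0.31 for Efna3. Sema5b was called in that comparison with the mouse as a random block (adjusted p = 0.0445). Its adjusted p in limma was 0.0275 to 0.158 over all alternatives, lowest in a fit without a block. Ntn4, a laminin-binding netrin, was called higher in R2 than in R1 with the mouse as a fixed block (adjusted p = 0.0239, 0.0239 to 0.217 over all alternatives). The receptors were 6 Ephs (Epha1, Epha2, Epha6, Epha8, Epha10 and Ephb4), 5 plexins (Plxna1, Plxna2, Plxna3, Plxnb1 and Plxnb2), Robo2, Unc5a and Unc5d. Their changes ranged from -0.43 for Ephb4, the venous receptor of Efnb2, to 0.42 for Epha6. A missed call does not show equal levels, as the 95% interval for Plxna2, the widest of these receptors, ran from -0.81 to 1.33.

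Many guidance genes have several probe sets, 45 of the 68, which gives a second reading of each change from the same RNA. Of the 14 genes called between R3 and R2, 12 had other probe sets. For 9 of the 12 another probe set was called in the same direction, and for 0 in the opposite one. Epha7 and Robo1 were called only by a probe set other than the chosen one. Against R1, another probe set was called the same way for 12 of 16 genes in R2 and 13 of 22 in R3, and the opposite way for 0 in both. How often probe sets share a call over all genes was not counted. Genes called only by another probe set were Efnb2, Epha1, Epha4 and Sema3b in R2 against R1, and Nrp2, Sema3c, Sema3d and Sema6a in R3 against R1.

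**Figure D4:**
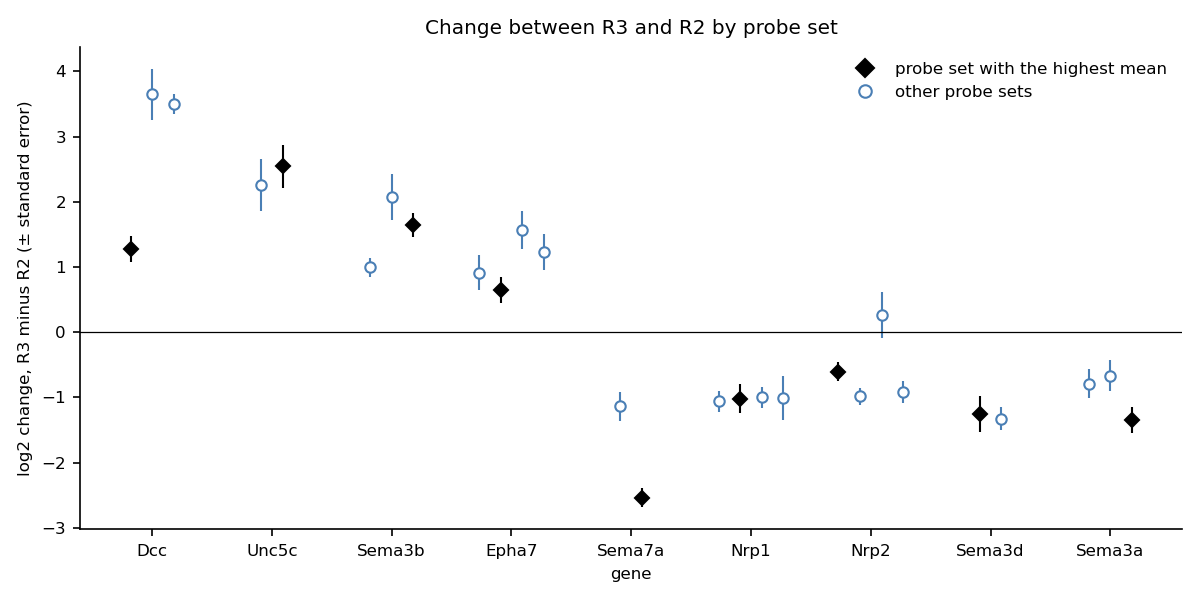
Log2 change in R3 against R2 with its standard error for every probe set of 9 guidance genes, with the chosen probe set marked. Sema3e, Epha5, Plxnb3 and Sema5a, also called and with several probe sets, are not shown. The probe sets of Dcc share their sign but range from 1.28 to 3.65, and 1 probe set of Nrp2 (0.26) differs in sign from the others.

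Relative to the dermal pool R1, more guidance genes were called than between the papilla gates. In R2 against R1, 21 of 68 were called (30.9%, against 13.1% of all genes), 14 higher in R2 (background 6.89%) and 7 lower (background 6.16%). Those higher included 9 receptors, among them Ephb1, Robo4, Ephb6, Unc5b, Epha3, Epha7 and Plxnd1, and 5 ligands. Those lower were 5 ligands and 2 receptors. The ligands were 3 higher without the R1 array of mouse 2 or 5, any single R2 array or the R3 array of mouse 4, and 3 lower without the R1 array of mouse 2 or the R2 array of mouse 2 or 5. In R3 against R1, 27 of 68 were called (39.7%, against 18.7%), 16 higher in R3 (background 7.9%) and 11 lower (background 10.8%). Of the 16 higher, 12 were receptors, and this number was 6 without the R1 or the R3 array of mouse 4. The count of guidance genes higher in R3 was 10 without either of these arrays. Median absolute changes were 0.43 (all genes 0.23) in R2 and 0.44 (all genes 0.25) in R3. The keratinocyte, leukocyte, melanocyte, fibroblast, pericyte and skeletal muscle marker lists and the beta-actin 3' to 5' difference also separated R1 from both papilla gates, and their part in the differences from R1 was not tested.

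Across the gates, 4 genes were called higher in R2 than in both other gates (Robo4, Sema7a, Sema3g and Nrp2), and Sema3e was called lower. R3 was above both for 5 (Unc5c, Dcc, Epha5, Plxnb3 and Sema3b) and below both for 3 (Sema7a, Sema3a and Nrp1). R1 was above both for 5 (Plxnc1, Plxna4, Efna5, Sema3e and Sema3f) and below both for 8 (Ephb1, Ephb6, Epha3, Epha7, Unc5b, Plxnd1, Slit2 and Sema3g). Some of these patterns rested on calls lost in alternatives named above. They were R2 above both for Nrp2 and Sema3g, R3 above both for Epha5 and Plxnb3, and R3 below both for Nrp1. So were R1 above both for Sema3e and Sema3f, and below both for Epha3, Unc5b and Plxnd1. The share of all genes with each pattern was not counted.

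**Figure D5:**
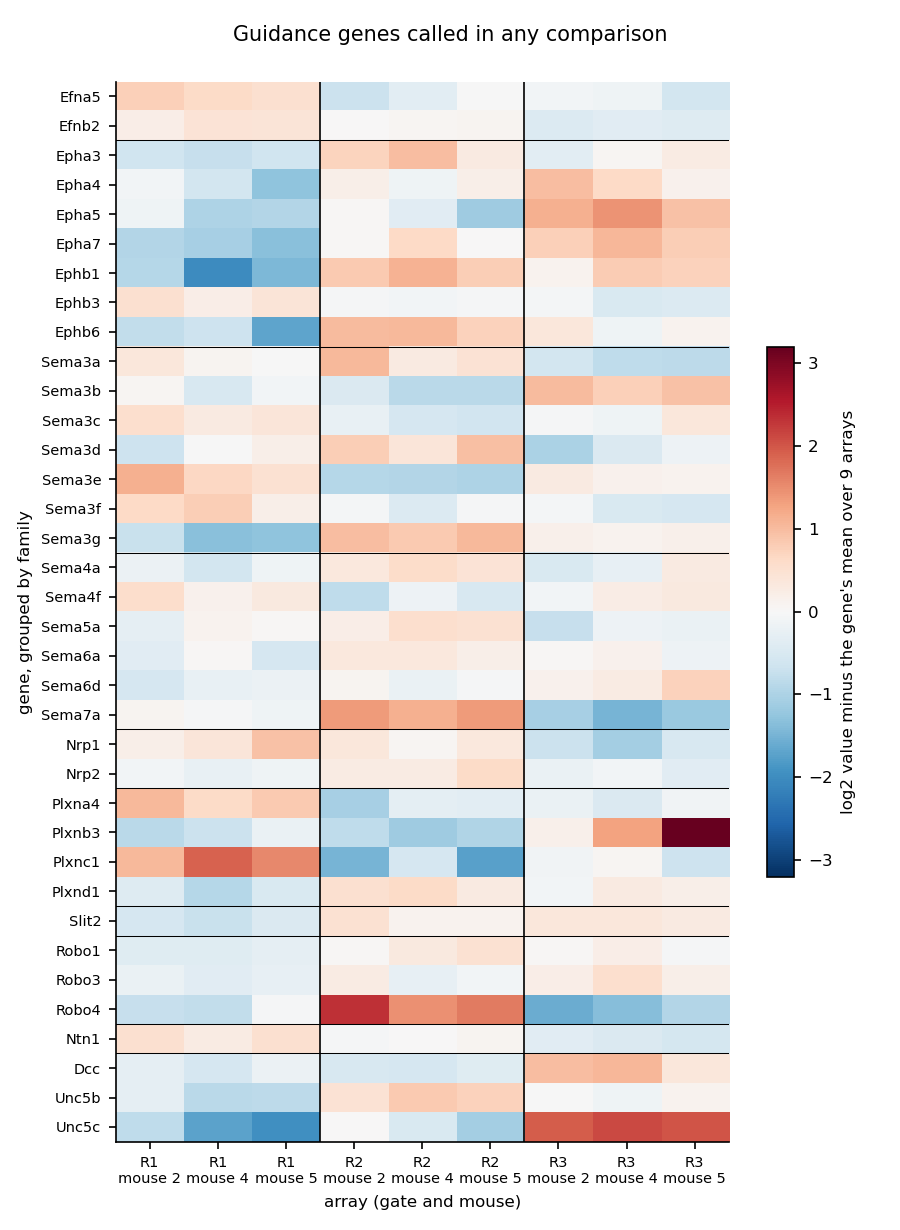
Log2 value minus the gene's mean over 9 arrays for the 36 guidance genes called in any comparison, by array (columns) and family (rows). The 3 arrays of a gate carry similar colours, with Unc5c, Dcc and Epha5 highest in R3, Robo4 and Sema7a highest in R2, and Plxnc1 highest in R1.

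Markers of other cells moved with some of these genes between the papilla gates. Of 9 guidance genes known from endothelium, 4 fell in R3 against R2 (Robo4, Sema3g, Nrp1 and Nrp2; 3.06% of all genes fell), as did 11 of the 12 endothelial markers. The count of 4 was 1 without any single R2 array or the R3 array of mouse 2 or 4, and 2 without the R3 array of mouse 5. In R2 against R1, 5 of the 9 rose (6.89% of all genes), as did 10 of the 12 endothelial markers. In R3 against R1, 3 of the 9 rose and 2 fell (7.9% and 10.8% of all genes), while 1 of the 12 endothelial markers rose and 7 fell. The 3 rises were 1 without the R1 or the R3 array of mouse 4. The 1 endothelial marker that rose did so in 0 of 12 without the R1 array of mouse 2 or 4, any single R2 array or the R3 array of mouse 4 or 5. Of 5 guidance genes known from glia, Plxnb3 and Sema3b rose in R3 against R2 (1.97% of all genes), as did 8 of 8 Schwann cell and glia markers. The count of these guidance genes was 1 without any single R1 or R2 array or the R3 array of mouse 4. The others of the 5, Sema4f (0.64), Sema4d (-0.53) and Efnb3 (-0.06), were not called between R3 and R2. The papilla markers differed too, with 8 of 16 higher and 2 lower in R3 than in R2. Sox2 was among those higher and Prom1 among those lower, and both are tied to the sort. Without the R2 array of mouse 4 or the R3 array of mouse 2 or 4 the 8 became 5. The part of endothelial or glial RNA in the changes of any guidance gene was not tested.

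Other guidance genes outside these families were described from a list of 22 measured ligands, receptors and co-receptors. Between the papilla gates 4 rose in R3 and 2 fell (all genes 1.97% and 3.06%). Draxin, a secreted ligand of Dcc, averaged 6.06 in R1, 8.54 in R2 and 9.77 in R3, and rose in R3 against R2 (1.23, adjusted p = 0.00491) and in R2 against R1 (2.49, adjusted p = 4.9e-05). Ntng1, a lipid-anchored netrin relative, averaged 5.43 in R1, 7.15 in R2 and 8.27 in R3 and rose in R3 against R2 (1.12, adjusted p = 0.00295) and in R2 against R1 (1.72, adjusted p = 0.000129), where 2 of 3 R1 arrays exceeded the guide. The adhesion molecule L1cam, a partner of Nrp1 that Schwann cells also make, rose in R3 against R2 (1.97, adjusted p = 0.00284), where 1 of 3 R2 arrays exceeded the guide. So did Met, the receptor of hepatocyte growth factor (1.57, adjusted p = 0.00609). The falls were in Rgma (-0.60, adjusted p = 0.0254), a ligand of the Dcc relative neogenin, and Lrig1 (-0.56, adjusted p = 0.0307), a negative regulator of growth factor receptors, both named after their values were seen. The count of falls was 0 without any single R2 array or the R3 array of mouse 4, and 1 without the R3 array of mouse 2 or 5.

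Of 48 intracellular guidance effectors, 2 rose and 2 fell in R3 against R2 (8.33%, against the background of 5.03%). Rnd1, which binds plexins, averaged 5.73 in R1, 7.40 in R2 and 5.03 in R3 and fell in R3 against R2 (-2.37, adjusted p = 0.00225). In R3, 1 of 3 Rnd1 arrays exceeded the guide, and with the others set to it the fall was 4.3-fold. Tiam1, an activator of Rac, averaged 9.14 in R1, 7.90 in R2 and 9.07 in R3 and rose (1.16, adjusted p = 0.00112), a call lost with the mean of its probe sets (adjusted p = 0.162, the highest of 0.000479 to 0.162 over all alternatives). Chn2, a Rac-inactivating protein of the chimaerin family, rose (1.26, adjusted p = 0.0413), and the adaptor Nck1 fell (-0.82, adjusted p = 0.0203). The Chn2 call was lost on leaving out any single array other than the R2 array of mouse 2, and the Nck1 call without the R2 array of mouse 2 or 4 or the R3 array of mouse 4 or 5. Without the R1 array of mouse 5 the count of falls was 4, and without the R2 or the R3 array of mouse 4 it was 1.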

How the data were processed

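The deposited values are log2 expression values of 45101 probe sets on 9 one-colour arrays, made by the authors with RMA (robust multi-array averaging), per the submitters' processing notes, its version not given in the sources used here. RNA of sorted cells was amplified and biotin-labelled before hybridisation, per the labels' protocols. Medians of the arrays were 6.13 to 6.20. Probe sets with 1 gene symbol in the platform annotation (34945) were kept and those with several (932), with none (9160) and controls (64) left out. Each gene kept the probe set with the highest mean over 9 arrays (18193 genes). limma 3.58.1 in R 4.3.3 fitted 1 coefficient per gate without a block, with Benjamini-Hochberg adjustment over all genes of a comparison. A call is an adjusted p under 0.05. The fit was tested on simulated data. The number of arrays, 3 per gate, limits the precision.

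Arrays with the same number came from the same mouse, per the labels. Deviations from the gate means correlated at 0.00675 to 0.177 between arrays of 1 mouse (9 pairs) and at -0.157 to 0.041 between different mice. Other fits took the mouse as a block, fixed or random, the mean of all probe sets, other scalings and variances, a filter on dim genes or small changes, fits on the 6 arrays compared, and leaving out each array in turn. Values on every array are given for the genes called in R3 against R2, and, per family, for up to 4 with the largest called change against R1. The guidance genes and all lists were chosen with earlier results of these data known.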

Additional observations from a re-analysis of the deposited data

How the results depend on the processing

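With any 1 array left out, the number of guidance genes called ranged from 4 to 7 higher and 3 to 8 lower in R3 against R2, from 10 to 14 higher and 5 to 7 lower in R2 against R1, and from 10 to 15 higher and 10 to 12 lower in R3 against R1. With the mouse as a fixed block the counts, in the same order, were 6, 7, 17, 7, 13 and 11, and as a random block 6, 12, 15, 8, 16 and 11. The pairing by mouse, as a fixed block, ended the calls named as such beside their values and ended no other; the random block ended none. Calls gained with the fixed block were those of Ntn4, Sema3b, Sema3d, Sema5a and Unc5c in R2 against R1, and with the random block those of Efnb2, Ntn1, Sema5b and Unc5b in R3 against R2 and of Ntn1 and Ntn4 in R2 against R1. Limiting the test to genes above the median gene left 2 higher in R3 against R2 and 4 lower in R2 against R1. It gave 11 lower in R3 against R2, in place of 8. That filter removed Dcc, Epha5, Plxnb3 and Sema3e, called higher in R3 against R2, without testing them. It likewise removed Plxna4, Plxnc1, Sema3e, Sema3f and Sema4f, called lower in R2 against R1. A minimum change of 2-fold left 5 lower in R3 against R2, 9 higher and 3 lower in R2 against R1, and 10 higher and 4 lower in R3 against R1. Repeated quantile normalization left 5 lower in R3 against R2, and a trended, robust variance gave 12. The mean of all probe sets gave 11 lower in R2 against R1. Over the 62 calls of guidance genes and their alternatives, the 2-fold minimum included, 920 values kept direction and call, 173 kept the direction and lost the call, and the direction of none turned. Signals near the olfactory receptor guide, as for Epha10 or Unc5d, limit what the arrays can show.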
